A study of Mus musculus with 15 samples.

Results

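The genes described here encode the proteins of the mitochondrial ribosome, taken as all genes whose symbol begins with Mrpl (named for the large subunit) or Mrps (named for the small subunit). Of 25786 features tested on the arrays 78 were such genes, 49 Mrpl and 29 Mrps. They are the 78 protein-coding genes with such a symbol in the RefSeq gene table used for names, and each had a probe well above background on all 15 arrays. The symbols came from the accessions that the array files pair with each probe, and no measured difference was used to choose the genes.

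Gene expression was measured in the heart of male C57BL6 mice aged 10 weeks with 1-colour arrays, 3 days after a sham operation or after transverse aortic constriction (TAC), in which a band narrows the aorta and the left ventricle has to pump against a higher pressure. All mice carried cre under a myosin heavy chain promoter. Mice of the genotype MHC-cre (Cre) carried it alone, and mice of the genotype MHC-cre-klf4 (KO) also had Klf4 deleted, which encodes a Krüppel-like transcription factor. The cre is active in cardiomyocytes, so the other cells of the heart keep Klf4. Of the 15 arrays 4 were Cre sham and 3 Cre TAC, while KO mice gave 4 sham and 4 TAC arrays. The labels give 4 animals per group and name the apex as the tissue, with RNA described as ventricular. They do not say that each array is 1 animal, and if it is not, the p-values measure only the spread between arrays. Sham and TAC of either genotype answer what pressure load changed, and KO against Cre what the deletion changed.

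The mitochondrial ribosome translates the mRNAs of the mitochondrial genome, which encode core subunits of the respiratory chain and of ATP synthase. Its rRNAs are transcribed from that genome, whereas all of its proteins are encoded in the nucleus, made in the cytosol and imported. The small subunit holds the mRNA and the decoding site, and the large subunit holds the peptidyl transferase centre and an exit tunnel that opens at the inner membrane. Some of its proteins descend from bacterial ribosomal proteins and others were added in the mitochondrial lineage. The heart depends on the product of this translation for oxidative phosphorylation, and inherited defects of several of these proteins cause cardiomyopathy in humans.

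The labels bear on every genotype statement. A table of values deposited beside the scanner files holds 14 of these 15 arrays (lowest rank correlation of 0.999992), and it gives each of the 14 the opposite genotype with an unchanged operation. Genotypes are taken from the scanner files here, and a group is named by how it was filed, as Cre or as KO. Under the genotypes of that table the names Cre and KO change places. KO TAC replicate 4 stood apart. It had a median processed signal of 444.1 (83.8 to 141.6 on the remaining 14), 95.9% of probes well above background (65.6% to 75.4%) and a median correlation of 0.807 to the rest (0.961 to 0.982), and no column of the table matched it. Klf4 itself did not separate the genotypes. Its probe was well above background on all 15 arrays, its level was 3.94 ± 0.51 (SD, n = 4) after sham filed as KO and 3.98 ± 0.25 (SD, n = 4) filed as Cre, and after TAC it was 4.15 ± 0.44 (SD, n = 4) and 4.14 ± 0.13 (SD, n = 3), in the log2 units explained next. The files do not say which part of Klf4 the probe covers, so this is no check of the labels. The main counts, medians and differences of the KO TAC group are given with all 15 arrays first and then without KO TAC replicate 4. For 7 of 15 samples 1 label names the other operation. By that label limma called 0 of 78 members after TAC in either genotype, and also 0 of all 25786 features. The 0 of 78 is therefore no result about the family. At an unadjusted p under 0.05 in limma there were 2 members filed as KO and 0 filed as Cre. The median over the members was then 0.21 filed as KO, against -0.07 over all features. All 13 cardiomyocyte markers were well above background on all 15 arrays.

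All levels are log2 processed signal minus the array's 75th percentile, a scale on which 1 unit is a factor of 2 and on which the levels of different genes are not compared. A gene was called at an adjusted p under 0.05 (limma with Benjamini-Hochberg adjustment over all 25786 features). At rest the genes varied little between arrays of a group. The median SD over the members was 0.13 among the 4 sham arrays filed as Cre and 0.19 among the 4 filed as KO, against 0.26 and 0.30 over all features. Among the 4 TAC arrays filed as KO it was 0.44, against 0.51 over all features. All features include probes that were dim on some arrays, whereas each member was well above background on all 15. The lower spread is therefore not shown to be a trait of the family.

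The largest differences of the family came after TAC in hearts filed as KO. Of the 78 genes 25 fell and 2 rose, and 51 were not called. Among all features 12.6% fell and 10.6% rose, so the falls of the family (32.1%) were more frequent and its rises (2.56%) less frequent than that background, a description that was not tested. The median log2 difference was -0.48 over the family, 0.11 over all features and -0.01 over the 19542 features well above background on all 15 arrays. Without KO TAC replicate 4, 24 fell and 7 rose, with 16.7% of all features falling and 14.8% rising, and the median was -0.28 against -0.09 over all features. The 24 falls were all among the 25, and both rises were among the 7. Leaving out KO sham replicate 1 or 4 left 16 falls and 1 rise, with 2420 and 2463 of the 25786 features falling. Leaving out KO sham replicate 3 or KO TAC replicate 1, 2 or 3 left 0 rises. A fit of only the 8 arrays compared left 6 falls and 0 rises, while 1625 of the 25786 features fell and 1509 rose. The share of the family that fell was then close to that of all features. In bulk tissue fewer cells of a type and less RNA per cell cannot be told apart. With median scaling in place of the 75th percentile the median of all features moved from 0.11 to -0.26 and the family's to -0.85. Median scaling left 2 falls and 0 rises, while 1705 of the 25786 features fell and 769 rose, so the family fell less often than all features. Relative to the median of all features the family stood at -0.59 under both scalings. That was fixed in advance, because each scaling shifts all values of an array alike. Under the other alternatives that kept the operations it ran from -0.80 with no filter on dim probes to -0.12 with array weights.

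Fewer differences were called in hearts filed as Cre. limma called 0 of 78 genes after TAC, with 4 at an unadjusted p under 0.05, while 4.3% of all features rose and 1.64% fell. The median log2 difference was -0.08, against -0.05 over all features, and 52 of 78 genes were below 0. Without KO TAC replicate 4, which enters that fit only through the shared spread, 2 fell and 2 rose, with 5.58% and 7.93% of all features called lower and higher. These 4 were named after their values were seen. Mrps21 and Mrps24, both proteins of the small subunit, were at -0.57 ± 0.17 and -0.43 ± 0.13 (SE), and Mrpl33 and Mrpl52, both of the large subunit, at 0.40 ± 0.11 and 0.32 ± 0.09, with limma adjusted p from 0.040 to 0.047.

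**Figure D1:**
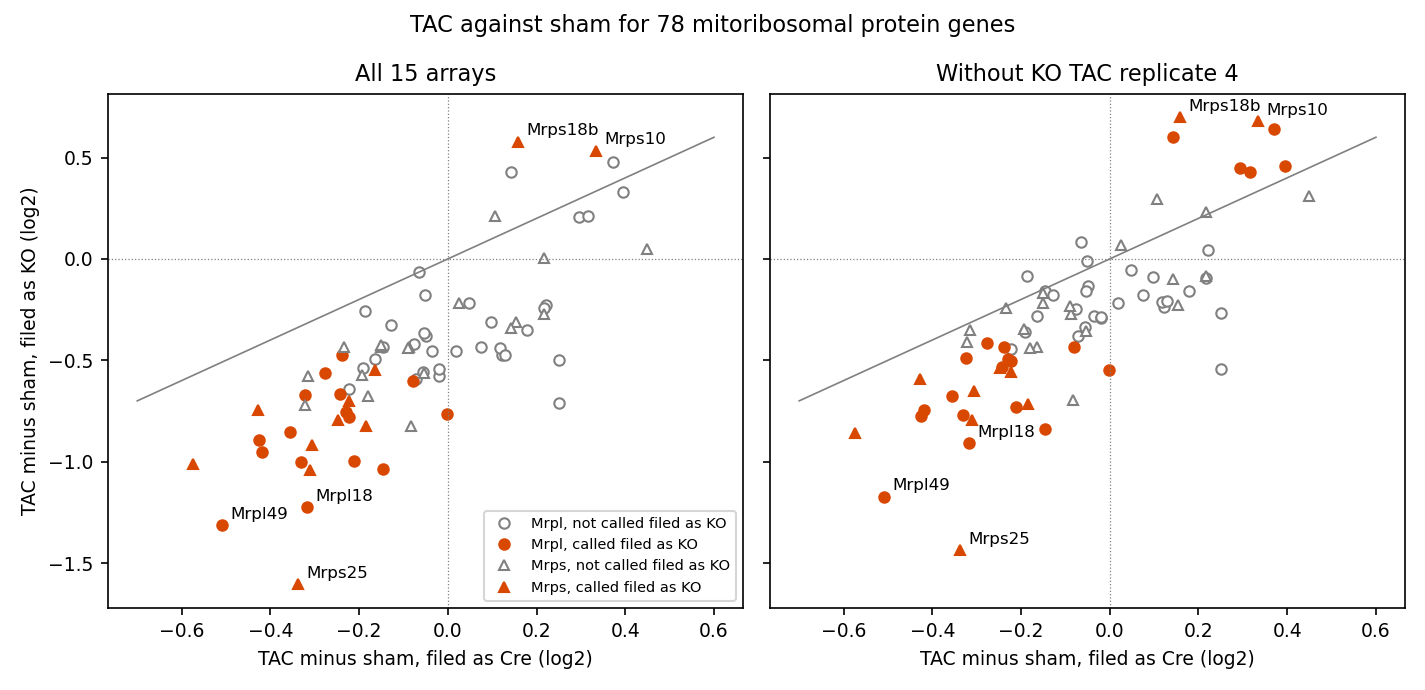
Each point is 1 of the 78 genes, placed by its log2 difference between TAC and sham filed as Cre (x axis) and filed as KO (y axis), with all 15 arrays on the left and without KO TAC replicate 4 on the right; circles are Mrpl, triangles Mrps, filled points were called filed as KO and the line marks equal differences. With all arrays 52 genes were below 0 in both genotypes and 73 of 78 lay below the line; without the array these were 51 and 65.

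The directions in the 2 genotypes were counted side by side. With all arrays 52 of 78 genes were below 0 in both, 10 were above 0 in both and 16 were below 0 only filed as KO. Over all features 35.6% were below 0 in both and 36.7% above 0 in both. The TAC difference was lower filed as KO than filed as Cre for 73 of 78 genes, against 45.5% of all features, and without KO TAC replicate 4 for 65 of 78, against 54.7%. The test of that difference, the TAC response filed as KO minus that filed as Cre, called 0 of 78 genes in limma, with 6 at an unadjusted p under 0.05 and the lowest adjusted p at 0.29, and 0.0116% of all features were called. Without KO TAC replicate 4 it also called 0, with 10 at an unadjusted p under 0.05, the lowest adjusted p at 0.18 and 0.12% of all features called. No single gene of the family passed the test of a different response at this number of arrays, which does not show that the responses were alike. Mrps25 had the largest difference of responses, -1.27 ± 0.35 (SE), and -1.10 ± 0.32 without that array. These values come from the brighter of its 2 probes. After TAC the dimmer probe differed by -0.07 filed as KO (-0.27 without that array) and by -0.25 filed as Cre, so it did not show this difference.

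The members moved together on single arrays. For each array the median over the 78 genes was taken after subtracting the mean of the sham arrays of the same filed genotype. The 4 TAC arrays filed as KO stood at -0.22, -0.41, -0.28 and -1.13, with 56, 64, 63 and 76 of 78 genes below the sham mean. Replicate 4 was the lowest by a wide margin, and the other 3 arrays lay below all 8 sham arrays, which ranged from -0.19 to 0.12. Each sham array is part of the mean subtracted from it, which draws the sham values toward 0. The separation is therefore partly built in. The 3 TAC arrays filed as Cre stood at -0.03, -0.25 and 0.06, so replicate 2 lay within the range of the KO arrays and the other 2 within that of the sham arrays. Each slide held 1 array of each group, except 1 slide without a Cre TAC array, and arrays of 1 slide deviated together (median correlation of 0.28 over 21 pairs). Within the 4 slides, the median difference between the TAC and sham arrays filed as KO ran from -1.20 to 0.05 and was below 0 on 3. Filed as Cre it ran from -0.19 to 0.01 over 3 slides.

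The subunits were then described separately. Filed as KO, 16 of 49 Mrpl genes fell and 0 rose, with a median log2 difference of -0.47, and 9 of 29 Mrps genes fell and 2 rose, with a median of -0.55. The shares that fell were 32.7% and 31.0%. Without KO TAC replicate 4, 16 Mrpl genes fell and 5 rose (median -0.28) and 8 Mrps genes fell and 2 rose (median -0.35). On each TAC array filed as KO the subunit medians lay close together, at -0.21, -0.45, -0.27 and -1.13 for Mrpl and at -0.23, -0.38, -0.30 and -1.13 for Mrps. Filed as Cre the medians were -0.06 for Mrpl and -0.15 for Mrps. No test of a score over the members was made.

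**Figure D2:**
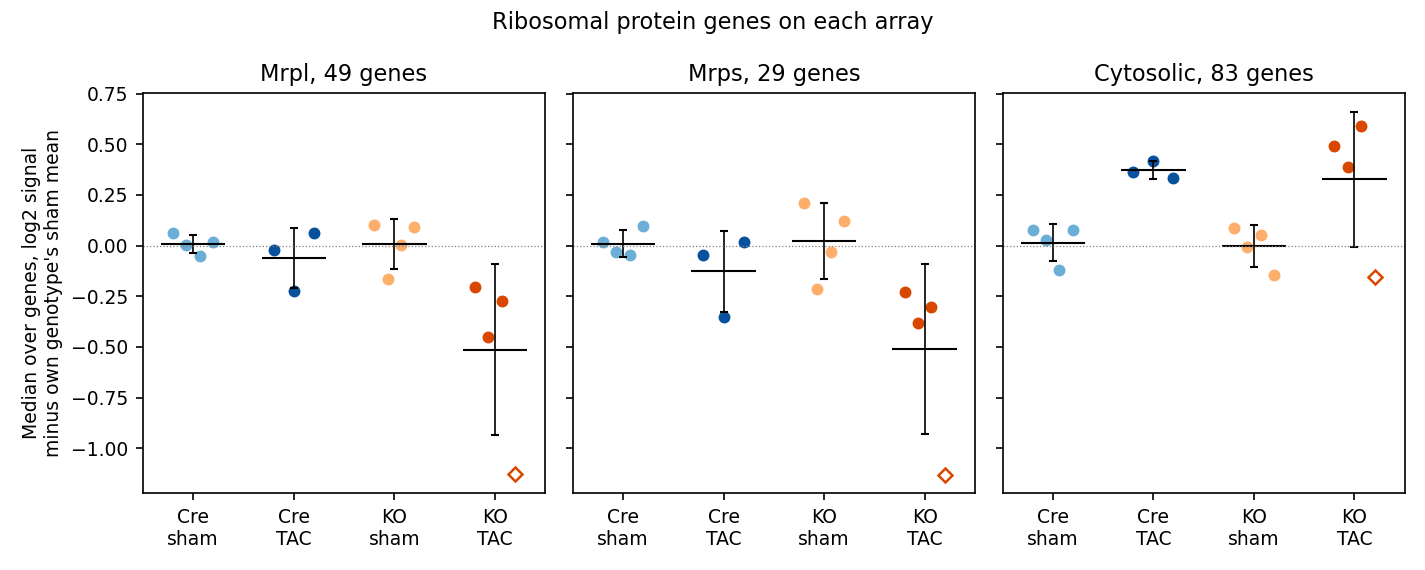
Each point is 1 array; the y axis is the median over the 49 Mrpl, 29 Mrps or 83 cytosolic ribosomal protein genes of the log2 signal minus the mean of the sham arrays of the same filed genotype, lines and bars are the mean and SD of a group, and the open diamond is KO TAC replicate 4. The 4 KO TAC arrays are at or below -0.21 for both mitochondrial subunits, while 6 of the 7 TAC arrays are at 0.33 or above for the cytosolic ribosome.

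Names and place differ for 3 members. In the known structures Mrps30 and Mrps18a lie in the large subunit, and Mrps36 belongs to the 2-oxoglutarate dehydrogenase complex of the tricarboxylic acid cycle and not to the ribosome. Counted by structure, 16 of 51 large-subunit genes fell and 0 rose filed as KO (median -0.47), and 9 of 26 small-subunit genes fell and 2 rose (median -0.55). Mrps30, Mrps18a and Mrps36 themselves differed by -0.42 ± 0.19, -0.27 ± 0.19 and -0.82 ± 0.33 (SE), none of them called (limma adjusted p of 0.14, 0.35 and 0.097), and without KO TAC replicate 4 by -0.22, -0.09 and -0.69, also not called. Of the 47 members with a bacterial relative 18 fell and 2 rose (median -0.54), and of the 31 without one 7 fell and 0 rose (median -0.47). With KO TAC replicate 4 left out, 16 fell and 5 rose among the large-subunit genes (median -0.27), 8 fell and 2 rose among the small-subunit genes (median -0.35), 17 fell and 6 rose with a bacterial relative (median -0.29) and 7 fell and 1 rose without one (median -0.27).

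Parts of the large subunit were counted with all arrays. Of 5 genes of the central protuberance, the crest that faces the small subunit, Mrpl18 and Mrpl38 fell filed as KO, and all 5 were below 0. Of 5 genes listed for the exit tunnel (Mrpl22, Mrpl23, Mrpl24, Mrpl45 and Mrpl47), Mrpl22 and Mrpl24 fell and all 5 were below 0. That list was picked by hand and does not hold each protein near the tunnel. Mrpl17, which it leaves out, differed by 0.43 on its brighter probe (0.60 without KO TAC replicate 4) and by -0.50 on its dimmer probe. Of the 3 genes of the stalk, which recruits translation factors, 0 were called and their differences ran from -0.45 to -0.23. With KO TAC replicate 4 left out the stalk genes ran from -0.28 to 0.04, and Mrpl18, Mrpl38, Mrpl22 and Mrpl24 were called. These small groups were drawn up with results of these data known.

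Sequence motifs, which the choice of genes did not use, were counted in the promoters of the members. RefSeq promoters of the mouse build GRCm38.p6, from 250 bases before to 50 bases after the start, were matched for 69 of 78 members. Motifs of 5 kinds of factor linked to nuclear genes of mitochondria were searched on both strands: CCGGAAG for the ETS family, which includes GABPA, GCGCATGCG for NRF1, AAGATGGCG for YY1, TCAAGGTCA for estrogen-related receptors and GGGCGG for SP1. The ETS motif was found in 26 of 69 members (37.7%), against 9.93% of the 27025 genes with a promoter in the table. NRF1 was found in 7 (10.1%, against 1.95%), YY1 in 8 (11.6%, against 1.64%) and SP1 in 34 (49.3%, against 38.2%). The estrogen-related receptor motif was found in 0 of 69, against 0.466%. A match is only a match of letters, and neighbouring motifs can overlap. The 27025 genes include genes not measured here, whereas every member was well above background on every array. The higher shares are therefore not shown to be a trait of the family, and they were not tested.

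The motifs were also counted by call. Of the 20 with a promoter that fell without KO TAC replicate 4, 6 held the ETS motif (30.0%), 3 NRF1, 3 YY1 and 7 SP1 (35.0%). Of the 42 not called these were 16 (38.1%), 2, 4 and 25 (59.5%). Of the 7 that rose, 4 held the ETS motif, 2 NRF1, 1 YY1 and 2 SP1. No test of these shares was made. The genes of the factors themselves were measured. Filed as KO, Nrf1, Gabpa, Yy1 and Sp1 differed by 0.37 ± 0.14, -0.69 ± 0.35, -0.15 ± 0.19 and -0.18 ± 0.17 (SE), none of them called, and without replicate 4 Yy1 and Sp1 were at 0.01 and 0.00. The estrogen-related receptor gene Esrra fell by 0.72 ± 0.20 (limma adjusted p = 0.022), and Esrrg, another of these receptors, by 1.62 ± 0.24 (adjusted p = 0.00061); without replicate 4 they differed by -0.54 and -1.39 and were called, and Nrf1 and Gabpa by 0.28 and -0.71 and were not.

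Promoters are shown for the 3 largest falls and for the 2 genes that rose with all arrays, so that genes that moved in opposite directions can be compared. Each is written 5′ to 3′ on the strand of its gene in lower case, with every match to a searched motif in capitals. Mrps25 lies at chr6:92183974-92184273 on the minus strand, Mrpl49 at chr19:6057706-6058005 on the minus strand, Mrpl18 at chr17:12916042-12916341 on the minus strand, Mrps18b at chr17:35916391-35916690 on the minus strand and Mrps10 at chr17:47368947-47369246 on the plus strand. The promoter of Mrpl49 holds 2 SP1 matches on the opposite strand, that of Mrpl18 an ETS and an SP1 match, and that of Mrps18b an NRF1 match, 2 SP1 matches and an ETS match. Those of Mrps25, which fell most, and Mrps10, which rose, hold none.
Mrps25: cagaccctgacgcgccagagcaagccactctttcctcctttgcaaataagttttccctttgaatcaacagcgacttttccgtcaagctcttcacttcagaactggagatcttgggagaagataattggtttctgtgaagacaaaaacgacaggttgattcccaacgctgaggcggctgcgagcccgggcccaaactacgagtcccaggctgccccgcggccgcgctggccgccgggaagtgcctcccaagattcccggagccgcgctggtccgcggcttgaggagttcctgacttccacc
Mrpl49: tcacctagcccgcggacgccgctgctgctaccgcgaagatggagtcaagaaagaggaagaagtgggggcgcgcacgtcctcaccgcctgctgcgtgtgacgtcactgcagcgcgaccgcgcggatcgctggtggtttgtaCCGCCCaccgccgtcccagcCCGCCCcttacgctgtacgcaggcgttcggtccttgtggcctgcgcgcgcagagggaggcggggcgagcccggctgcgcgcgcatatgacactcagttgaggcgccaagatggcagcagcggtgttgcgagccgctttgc
Mrpl18: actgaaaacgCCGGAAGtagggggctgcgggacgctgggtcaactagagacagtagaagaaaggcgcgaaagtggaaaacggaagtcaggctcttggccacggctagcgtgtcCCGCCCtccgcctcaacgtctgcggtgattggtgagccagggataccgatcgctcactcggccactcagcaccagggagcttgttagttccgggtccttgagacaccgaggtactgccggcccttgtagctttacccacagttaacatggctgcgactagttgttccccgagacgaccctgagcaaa
Mrps18b: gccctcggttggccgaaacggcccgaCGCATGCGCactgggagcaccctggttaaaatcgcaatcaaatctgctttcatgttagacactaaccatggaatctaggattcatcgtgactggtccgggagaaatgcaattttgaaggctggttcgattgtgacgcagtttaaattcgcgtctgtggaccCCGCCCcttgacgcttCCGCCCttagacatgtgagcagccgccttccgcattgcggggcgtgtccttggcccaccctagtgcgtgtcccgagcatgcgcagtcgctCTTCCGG
Mrps10: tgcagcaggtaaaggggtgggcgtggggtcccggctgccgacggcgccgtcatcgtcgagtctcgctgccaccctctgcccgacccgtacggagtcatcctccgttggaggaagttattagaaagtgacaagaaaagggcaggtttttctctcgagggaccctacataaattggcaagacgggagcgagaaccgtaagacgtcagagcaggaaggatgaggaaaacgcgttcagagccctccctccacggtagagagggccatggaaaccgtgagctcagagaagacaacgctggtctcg

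Mrps25, a small-subunit protein added in the mitochondrial lineage, had the largest fall. Its level on the 4 sham arrays filed as KO was 1.78, 1.19, 1.24 and 1.70, and on the 4 TAC arrays 0.41, -0.52, 0.25 and -0.64. Each TAC array lay below each sham array, and replicate 4 lay near replicate 2. The difference was -1.61 ± 0.24 on the log2 scale (SE), 3.04-fold lower after TAC, with a limma adjusted p of 0.00059, and -1.43 ± 0.22 without replicate 4 (adjusted p = 0.00058). Filed as Cre the 4 sham arrays read 1.32, 1.32, 1.41 and 1.48 and the 3 TAC arrays 0.98, 0.87 and 1.27, groups that did not overlap, with a difference of -0.34 ± 0.26 that was not called (adjusted p = 0.61). These values come from the brighter of 2 probes. The dimmer probe differed by -0.07 ± 0.24 filed as KO (limma adjusted p = 0.85), so with all arrays the fall was seen by 1 of the 2 probes. Replicate 4 was the highest KO TAC array of the dimmer probe, at -1.93, and without it that probe differed by -0.27, with no test.

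Mrpl49, a large-subunit protein without a bacterial relative, was next. On the sham arrays filed as KO it read 3.03, 2.35, 2.45 and 2.63, and on the TAC arrays 1.60, 1.18, 1.54 and 0.88, with no overlap. It fell by 1.31 ± 0.22 on the log2 scale (SE), 2.49-fold lower, with a limma adjusted p of 0.0011; without replicate 4 the difference was -1.17 ± 0.21. Its 3 probes differed by -1.31, -1.28 and -0.65, and all 3 were called. Filed as Cre the difference was -0.51 ± 0.23 (adjusted p = 0.27), with TAC arrays at 2.46, 1.74 and 2.37 below the lowest sham array at 2.58.

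Mrpl18 lies in the central protuberance of the large subunit. It read 4.64, 4.25, 4.55 and 4.69 on the sham arrays filed as KO and 3.70, 3.48, 3.69 and 2.37 on the TAC arrays. All 4 TAC arrays lay below the sham arrays, and replicate 4 lay well below the other 3. The difference was -1.22 ± 0.26 (SE, limma adjusted p = 0.0051), and -0.91 ± 0.16 without replicate 4 (adjusted p = 0.0011). Its 3 probes gave -1.23, -1.22 and -1.07, and -0.94, -0.91 and -0.90 without replicate 4.

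The other falls named by size were also taken only from called genes whose groups did not overlap. Their separation was therefore fixed by the choice. Mrps9, whose bacterial relative contacts the peptidyl tRNA, read 2.44, 2.07, 2.21 and 1.27 after TAC filed as KO, against 2.53 to 3.44 after sham (-1.04 ± 0.26, limma adjusted p = 0.012). Mrpl34, a small basic protein of the large subunit, read 4.06, 3.47, 3.99 and 3.04 against 4.54 to 4.87 (-1.04 ± 0.22, adjusted p = 0.0044). Mrps21, of the small subunit, read 2.68, 2.20, 2.50 and 1.85 against 3.11 to 3.48 (-1.01 ± 0.20, adjusted p = 0.0026). In all 3 replicate 4 was the lowest array. Mrpl42, a large-subunit protein without a bacterial relative, read 5.76, 5.13, 5.38 and 4.48 against 5.83 to 6.36 (-1.0 ± 0.26, adjusted p = 0.014). Mrpl3, which lies near the peptidyl transferase centre and is mutated in a human cardiomyopathy, read 3.64, 3.40, 3.66 and 2.51 against 3.85 to 4.62 (-0.995 ± 0.25, adjusted p = 0.011). Without replicate 4 these 5 differences lay between -0.86 and -0.73 and all 5 were called. The remaining 17 falls lay between -0.95 (Mrpl4) and -0.47 (Mrpl9), names chosen after the values were seen.

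**Figure D3:**
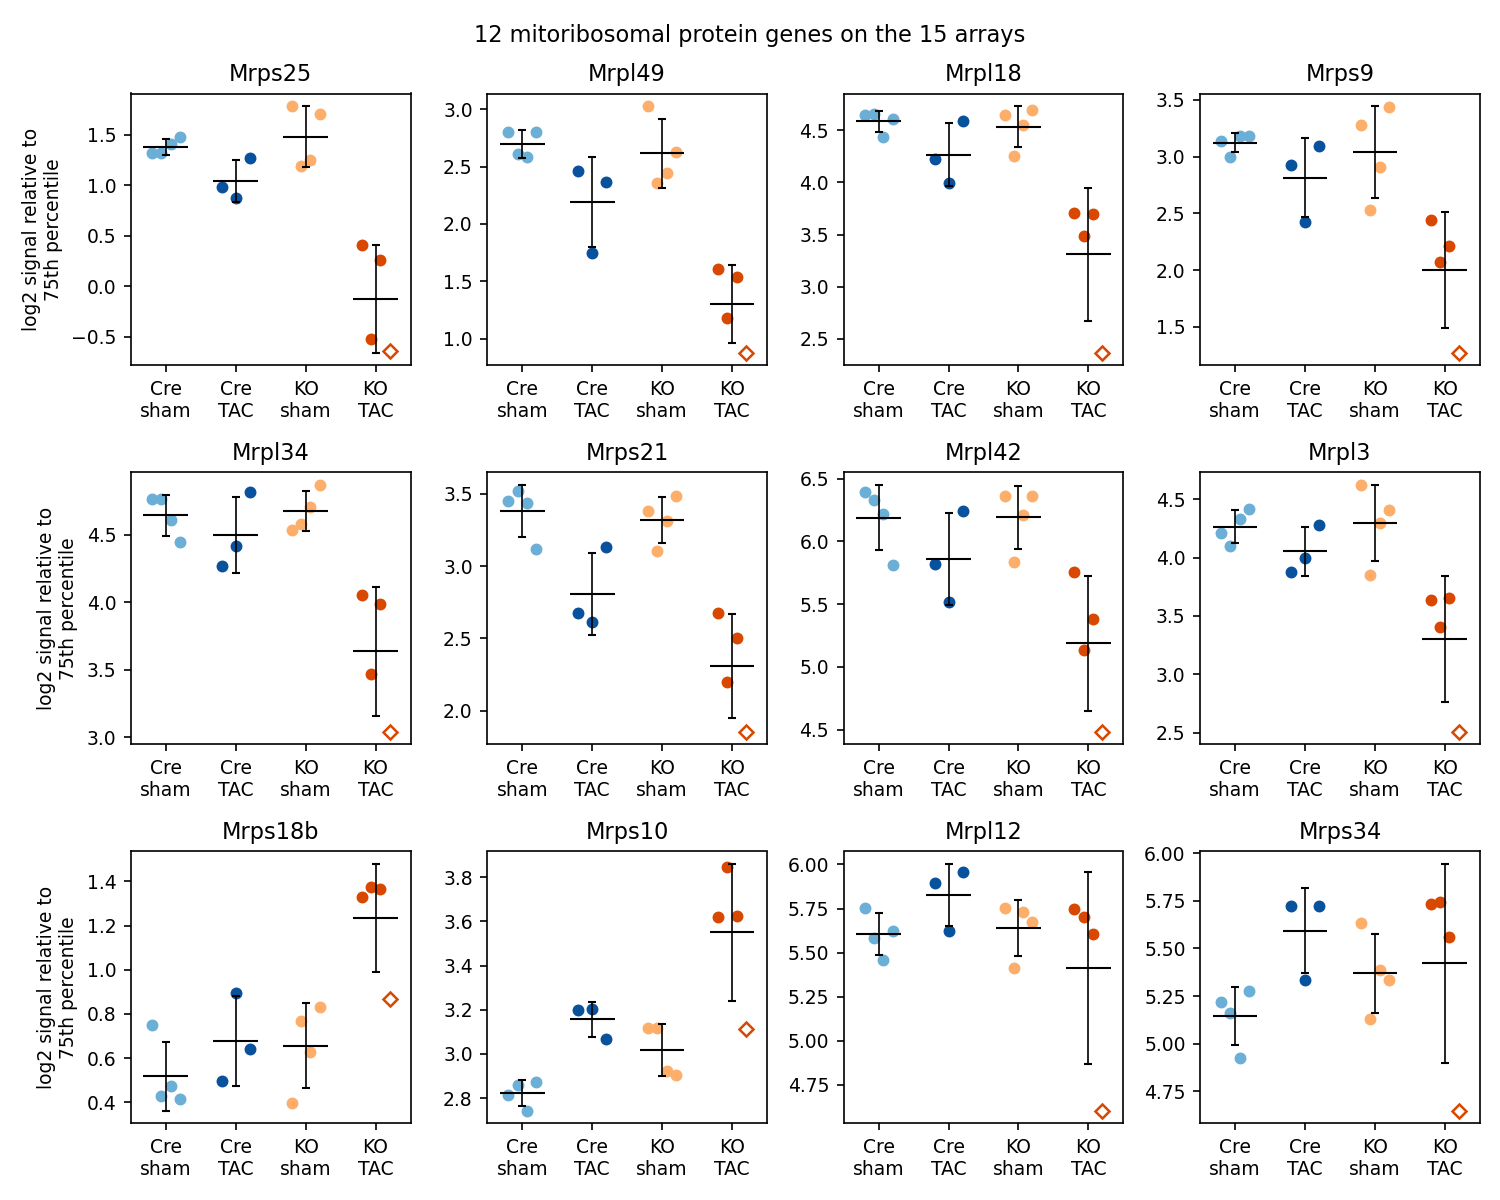
Each panel is 1 gene and each point 1 array, by group (filed genotype and operation); the y axis is log2 processed signal minus the array's 75th percentile, lines and bars are the mean and SD of a group, and the open diamond is KO TAC replicate 4. In the first 8 panels each KO TAC array lies below each KO sham array and in Mrps18b each lies above, which the naming rule required. In Mrpl12 and Mrps34 KO TAC replicate 4 alone is low.

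The rises belonged to the small subunit when all arrays were used. Mrps18b, 1 of 3 relatives of a single bacterial protein, read 0.40, 0.77, 0.63 and 0.83 on the sham arrays filed as KO and 1.33, 1.38, 1.36 and 0.87 on the TAC arrays. All 4 TAC arrays were higher, replicate 4 by the least. The difference was 0.58 ± 0.17 (SE, limma adjusted p = 0.023) and 0.70 ± 0.14 without replicate 4 (adjusted p = 0.0030). Its relatives Mrps18a and Mrps18c differed by -0.27 ± 0.19 and 0.21 ± 0.16, or -0.09 and 0.30 without replicate 4, and were not called. Leaving out any of 5 single arrays ended the call of Mrps18b (KO sham replicate 1 or 3, or KO TAC replicate 1, 2 or 3; adjusted p from 0.052 to 0.075, differences from 0.49 to 0.57). Mrps10, a protein of the small subunit's head named here after its values were seen, read 3.12, 3.12, 2.93 and 2.91 after sham and 3.62, 3.84, 3.63 and 3.11 after TAC. Its groups overlapped through replicate 4, and the difference was 0.53 ± 0.15 (adjusted p = 0.024), or 0.68 ± 0.11 without that array (adjusted p = 0.00079). Its call ended without KO sham replicate 3 or 4 or KO TAC replicate 1, 2 or 3 (limma adjusted p from 0.053 to 0.071).

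A further 5 genes, all in the large subunit, rose without KO TAC replicate 4, and they were named after their values were seen. Mrpl35 and Mrpl17 differed by 0.64 ± 0.11 and 0.60 ± 0.11 (SE), and Mrpl33, Mrpl20 and Mrpl52 by 0.46, 0.45 and 0.43, with limma adjusted p from 0.0013 to 0.020 over the 5. All 7 rising genes had KO TAC replicates 1 to 3 above each sham array of that genotype. They were chosen by their calls on these same arrays, so this separation is no further support for the rises. On replicate 4 each of the 7 was lower than on the other 3 TAC arrays.

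Probes of the same gene disagreed for some of these. Mrpl35 has 2 probes, which with all arrays differed by 0.48 ± 0.16 and -0.76 ± 0.20 filed as KO; both were called among the probes (limma adjusted p of 0.048 and 0.015), in opposite directions. The probes of Mrpl17 differed by 0.43 ± 0.17 (not called, adjusted p = 0.078) and -0.50 ± 0.17 (called, adjusted p = 0.047). A rise of either gene is therefore a statement about 1 probe. Without replicate 4 the probes of Mrpl35 differed by 0.64 and -0.90 and those of Mrpl17 by 0.60 and -0.39. The brighter probe of Mrps7, a small-subunit protein that binds rRNA, differed by -0.22 ± 0.25 and its dimmer probe by -0.91 ± 0.23 (called, adjusted p = 0.010), and without replicate 4 by 0.07 and -0.65. In all, 28 members had several probes, and their signs differed for 2 filed as KO and for 8 filed as Cre. The probes of Mrpl3 gave -0.995, -1.03 and -1.16, and those of Mrpl42 -1.0 and -1.16.

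**Figure D4:**
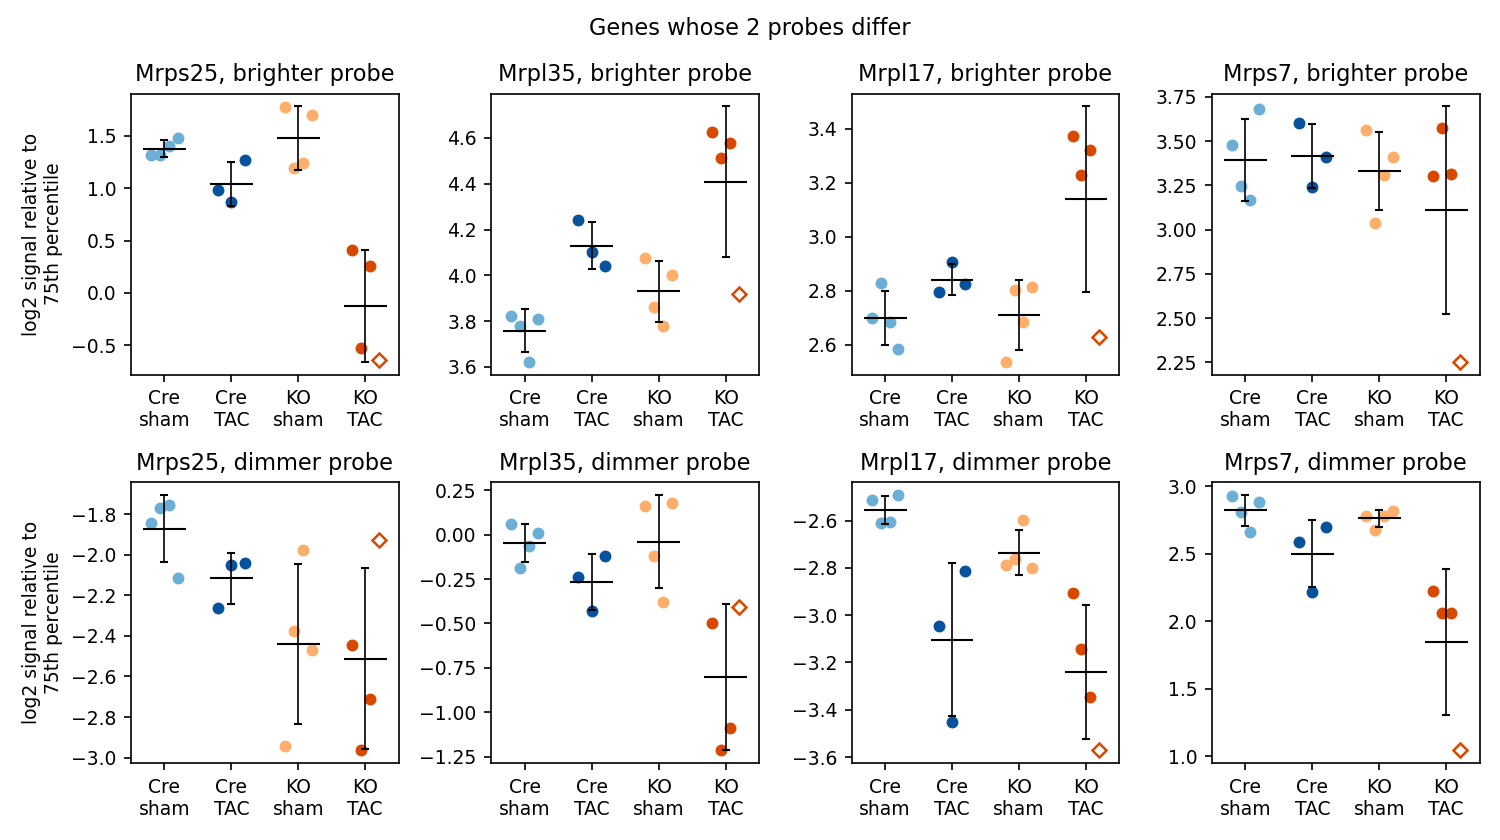
The brighter (top) and dimmer (bottom) probe of 4 genes, 1 point per array by group; the y axis is log2 processed signal minus the array's 75th percentile, lines and bars are the mean and SD, and the open diamond is KO TAC replicate 4. The KO TAC arrays are low for the brighter but not the dimmer probe of Mrps25, and high for the brighter but low for the dimmer probe of Mrpl35 when replicate 4 is set aside.

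A panel of 12 genes was followed for their roles, and Mrpl3 was the only one of them called filed as KO with all 15 arrays. Mrpl12, a stalk protein that also binds the mitochondrial RNA polymerase, read 5.75, 5.41, 5.73 and 5.67 after sham and 5.75, 5.70, 5.6 and 4.6 after TAC filed as KO. Only replicate 4 left the sham range, and the difference of -0.23 ± 0.23 became 0.04 ± 0.13 without it. Its partner Mrpl10 differed by -0.43 ± 0.26, and -0.16 ± 0.19 without replicate 4. Mrpl44 and Mrps22, both mutated in human cardiomyopathy, differed by -0.59 ± 0.23 (limma adjusted p = 0.080) and 0.01 ± 0.23, and without replicate 4 by -0.38 ± 0.18 and 0.23 ± 0.18. None of these 4 was called in either fit.

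The rest of that panel gave similar values. Mrpl45, which anchors the ribosome to the inner membrane, differed by -0.50 ± 0.24, and Mrpl58, a peptidyl-tRNA hydrolase built into the large subunit, by -0.31 ± 0.27. Mrps12, of the decoding centre, differed by -0.58 ± 0.22 (adjusted p = 0.080), Mrps16 by -0.56 ± 0.20 (adjusted p = 0.062) and Mrps2 by -0.57 ± 0.22 (adjusted p = 0.083) in limma. The last 3 came close to the threshold, and for Mrps16 and Mrps2 the groups did not overlap. Mrps34, a small-subunit protein without a bacterial relative, differed by 0.05 ± 0.23, with TAC arrays at 5.73, 5.75, 5.56 and 4.65, the last again replicate 4. Leaving out replicate 4 moved Mrpl45, Mrpl58, Mrps12, Mrps16 and Mrps2 to -0.27, -0.09, -0.35, -0.35 and -0.35 and Mrps34 to 0.31, none of them called. Filed as Cre the 12 genes differed by -0.32 (Mrps12) to 0.45 (Mrps34), none of them called.

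Between the filed genotypes few differences were seen after sham. limma called 0 of 78 genes, with 1 at an unadjusted p under 0.05, and 0.0155% of all features were called; without KO TAC replicate 4 the counts were also 0 and 1, with 0.0233% of all features called. The median log2 difference was 0.01 and single genes ran from -0.33 to 0.42. After TAC the median was -0.41, filed as KO minus filed as Cre, and -0.20 without replicate 4, and 68 and 63 of 78 genes were below 0. Only Mrps25 was called with all arrays, at -1.17 (limma adjusted p = 0.032), with 1.9% of all features lower and 1.14% higher. Its TAC means were -0.13 ± 0.53 filed as KO (SD, n = 4) and 1.04 ± 0.21 filed as Cre (SD, n = 3). Its call ended under a replicate block and without Cre TAC replicate 1 or 3, KO TAC replicate 2 or Cre sham replicate 1, 2 or 3 (adjusted p from 0.051 to 0.18). With the slide as a block 3 genes were lower, and 7 with the slide as a random block, Mrps25 among them at -1.19 and -1.18 (limma adjusted p of 0.044 and 0.018). Within the 3 slides that held both TAC arrays Mrps25 differed by -1.51, -1.02 and -1.51, and the median over the members ran from -0.83 to -0.33. All these Mrps25 values come from its brighter probe. The dimmer probe read -2.44, -2.96, -2.71 and -1.93 after TAC filed as KO and -2.26, -2.05 and -2.04 filed as Cre. Its groups overlapped through KO TAC replicate 4, and its genotype difference was not tested. Leaving out KO TAC replicate 1 gave 5 lower genes and Cre TAC replicate 2 gave 2. Without KO TAC replicate 4, Mrps25, Mrpl18, Mrpl4 and Mrpl9 were lower filed as KO and Mrps18b, Mrps10, Mrpl17 and Mrpl35 higher, with 4.72% and 4.11% of all features lower and higher. These 7 further names were chosen after their values were seen, and the genotype labels of every one change places under the value table.

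Genes that serve the mitochondrial ribosome were followed through lists. Of 5 measured mitoribosomal proteins with other names, Ptcd3 and Dap3, both of the small subunit, fell filed as KO, by 0.91 ± 0.25 and 0.72 ± 0.20 on the log2 scale (SE, limma adjusted p of 0.017 and 0.020). Of 15 mitochondrial translation factors 9 fell and 0 rose (median -0.86), among them Tufm, the elongation factor that brings tRNA to the ribosome, at -1.26, and Gfm1, the translocation factor, at -1.01. Of 23 genes of mitoribosome assembly and rRNA modification 12 fell and 0 rose (median -0.62), with the rRNA methyltransferase Mrm1 at -1.34. The members chosen for naming in these lists were picked after their values were seen. The falls without KO TAC replicate 4 were 2, 9 and 14, and the medians -0.52, -0.62 and -0.62. Filed as KO 12.6% of all features fell and 10.6% rose with all arrays. Without that replicate 16.7% fell and 14.8% rose. These shares are also the background of the lists that follow.

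The charging of tRNA and the mitochondrial genome itself gave fewer calls. Of 21 mitochondrial aminoacyl-tRNA synthetases 6 fell and 2 rose (median -0.36), and of 15 genes of mitochondrial DNA transcription and maintenance 5 fell and 0 rose (median -0.72); without KO TAC replicate 4 these were 7 and 2 (median -0.36) and 5 and 0 (median -0.43). Of 36 nuclear subunits of respiratory complex I, which is assembled around products of this ribosome, 13 fell and 0 rose (median -0.63), and without KO TAC replicate 4, 9 fell (median -0.43). Filed as Cre, 0 genes of these 6 lists were called in limma, with 0 to 5 per list at an unadjusted p under 0.05, and their medians ran from -0.37 to -0.12. Among all features 1.64% fell and 4.3% rose in that comparison. With KO TAC replicate 4 left out, 1 synthetase gene, 3 assembly genes and 2 genes of mitochondrial DNA transcription and maintenance fell filed as Cre. In that fit 5.58% of all features fell. The counts are small, and no test against that share was made. None of the 26 listed proteins encoded in the mitochondrial genome was measured here.

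The cytosolic ribosome had positive medians after TAC. Of 83 measured genes of cytosolic ribosomal proteins 4 rose and 0 fell filed as Cre (median 0.39), and 10 rose and 1 fell filed as KO (median 0.34). The shares that rose, 4.82% and 12%, were near those of all features (4.3% and 10.6%). With KO TAC replicate 4 left out, 22 of the 83 rose and 1 fell filed as Cre, and 54 rose and 1 fell filed as KO, with medians of 0.39 and 0.46. In that fit 7.93% of all features rose and 5.58% fell filed as Cre, and 14.8% rose and 16.7% fell filed as KO. The shares of the cytosolic genes that rose were then well above those of all features, a description that was not tested. On the 3 TAC arrays filed as Cre the median stood at 0.36, 0.42 and 0.33, and on those filed as KO at 0.49, 0.39, 0.59 and -0.16. So the 2 ribosomes of the cell were on opposite sides of 0 on 5 of the 7 TAC arrays, the exceptions being Cre TAC replicate 3, where both were above, and KO TAC replicate 4, where both were below. Among the 5 was Cre TAC replicate 1, where the median of the mitochondrial ribosome lay within the range of the sham arrays.

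**Figure D5:**
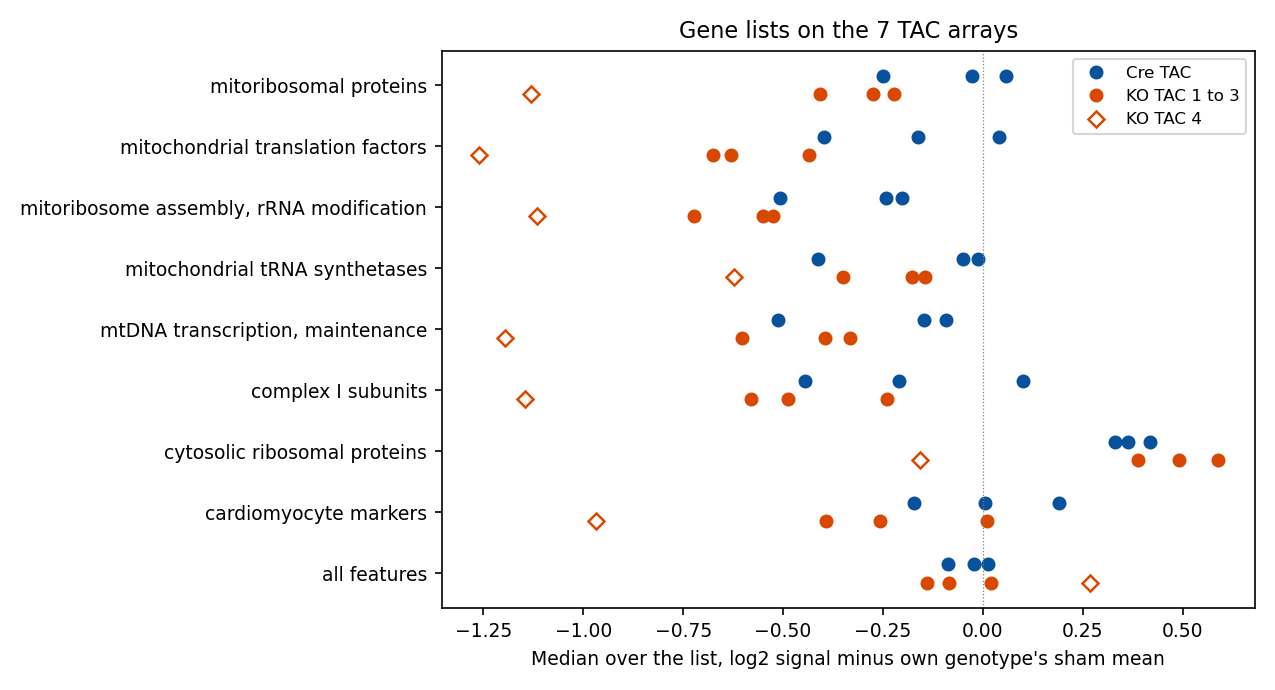
Each point is 1 of the 7 TAC arrays; the x axis is the median over a gene list of the log2 signal minus the mean of the sham arrays of the same filed genotype, and the open diamond is KO TAC replicate 4. That array is the lowest in each list shown except all features, where it is the highest at 0.27, and the cytosolic ribosomal proteins are at 0.33 or above on the other 6 arrays.

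Markers of cardiomyocytes, cells rich in mitochondria, were followed on the same arrays. The median over 13 markers stood at 0.01, -0.39, -0.26 and -0.97 on KO TAC replicates 1 to 4 and at 0.01, -0.17 and 0.19 on the Cre TAC arrays. Their summed signal ranged from 2570 to 3409 after sham and from 1583 to 2925 after TAC filed as KO, on a linear scale relative to the 75th percentile, and from 2813 to 2907 and from 2557 to 3165 filed as Cre. Of the 13, 4 fell filed as KO (median -0.49), also without replicate 4 (median -0.32), while 12.6% and 16.7% of all features fell. The medians of the family in these fits were -0.48 and -0.28. On KO TAC replicate 1 the markers were at 0.01 and the family at -0.22. On the other KO TAC replicates both lay below the sham mean. Neutrophil markers were higher after TAC, with medians over 7 markers between 2.68 and 4.63 on the 7 TAC arrays, and 6 of the 7 rose filed as KO and 2 filed as Cre. Their summed signal ranged from 0.381 to 13.6 after sham and from 10.1 to 51.0 after TAC filed as KO, so 1 sham array overlapped the TAC arrays. Other cell types also differed. Summed fibroblast markers ranged from 169 to 224 after sham and from 378 to 607 after TAC filed as Cre, and from 188 to 370.4 and from 311 to 464 filed as KO. Summed mesothelial markers ranged from 1.03 to 3.41 and from 13.8 to 18.4 filed as Cre, and from 0.578 to 4.42 and from 7.79 to 18.1 filed as KO. Summed red blood cell markers ranged from 440.1 to 529 and from 268 to 416 filed as Cre, and from 290 to 711 and from 80.5 to 293 filed as KO, the lowest on KO TAC replicate 4. The part of these cell types in the differences of the family was not tested.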

How the data were processed

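RNA was amplified with Cy3 label for Agilent arrays read in 1 colour, per the labels' protocols. The deposited scanner files hold spot intensity, and the processed signal is an intensity from which Feature Extraction had subtracted background, per the file headers. The value table deposited by the authors holds log2 values on a shared distribution, a scale found by setting its columns (medians 7.22 to 7.23) against the scanner intensity. How its background was handled is unknown. limma is named, without a version, in the submitters' processing notes.

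Outlier spots were set missing, control spots removed and repeated spots of a probe averaged. Values were log2 processed signal minus the array's 75th percentile. Of 41174 probes 32510 were well above background on 3 or more arrays. A gene took its brightest probe, giving 25786 features. Accessions were named through a RefSeq gene table (GRCm38.p6), which gave 24844 probes a symbol. Saturation was found in 0 probe values, and precision depends on how many arrays there are. With limma 3.58.1 (R 4.3.3; lmFit, contrasts.fit, eBayes) 1 model of 4 groups was fitted to the 15 arrays for 5 comparisons, and it was tested on simulated data. Figures used Python 3.11.15 with matplotlib 3.10.9.

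The members, lists, motifs and naming rule were chosen with earlier results of these data known. The rule named, per TAC comparison, up to 8 falls and 6 rises of largest size among called members whose groups did not overlap, up to 6 called members per other comparison, a panel of 12 by role, and members whose probes differed in sign. Rps19bp1, which is not a ribosomal protein, was left out of the cytosolic list, and the groups by bacterial relative and by place in the subunit were drawn up after the data were seen.

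Alternatives covered scaling, background correction, filters, the probe rule, outlier spots, slide and replicate blocks, array weights, the arrays in the fit, the authors' values and the operation in the description field. Replicate numbers are shared between groups, but arrays of the same number did not deviate together (median correlation of -0.061 over 21 pairs, from -0.386 to 0.528), so the numbers were not taken as pairs.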

Additional observations from a re-analysis of the deposited data

Results flagged for a closer look

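In 4 genes the KO TAC arrays held 1 array far from the other 3, and it was replicate 4 in each. Mrpl12 read 4.6 there, against 5.6 on the next array, Mrpl18 2.37 against 3.48, and Mrps34 4.65 against 5.56. Mrps18b read 0.87 against 1.33. The median over the Mrps genes, after subtracting the sham mean, was -1.13 on the same array against -0.38 on the next. Over all 78 members KO TAC replicate 4 stood apart as the lowest array in 13, and no other KO TAC array did. By chance about 1 in 20 independent groups would hold such an array, but genes on 1 array move together. The share over all features was not counted, so the 13 are no result about the family. The counterparts were 7 members in Cre sham and 1 member in KO sham.

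Mrps22 had 2 such arrays among sham. Cre sham replicate 4 read 1.66, against 1.82 on the next array, and KO sham replicate 4 read 2.16, also against 1.82.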

How the results depend on the processing

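With 3 or 4 arrays per group the number of arrays limits precision, and every gene of the family was well above background on every array. The calls over all features moved as well. With the authors' table and its genotypes 3256 of the 25786 features fell after TAC filed as KO, a share close to that of the 10 falls below. Filed as Cre 4649 features fell there, a smaller share than that of the 38 falls below. By the description field 0 features were called in either TAC comparison. Counts are given as genes of the family that rose and fell. After TAC filed as KO (2 and 25 in the reported fit) they were 5 rises under quantile normalization, 0 and 2 under median scaling, 7 rises under normexp, 10 falls with the authors' value table and its genotypes, 7 rises with the slide as a block and KO TAC replicate 4 left out, 9 rises under array weights, 0 and 6 with only the groups compared in the fit, 0 and 0 with the operation of the description field, and 6 rises with the authors' values of the 14 matched arrays under the genotypes of the scanner files, an alternative chosen after seeing the data. After TAC filed as Cre (0 and 0) they were 2 falls under normexp, 7 and 38 with the authors' table, 5 and 3 with the slide block without that array, 4 and 2 under weights and 5 falls with the matched arrays.

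Between genotypes after TAC (0 higher and 1 lower filed as KO) the counts were 2 and 4 under quantile normalization, 0 lower under median scaling, 3 and 8 under normexp, 11 and 3 with the authors' table, 6 lower when all 15 arrays had to be above background, 0 lower with no filter on dim probes, 3 lower with the slide as a block and 7 as a random block, 4 and 6 with the slide block without KO TAC replicate 4, 4 and 8 under weights, 0 lower with only the groups compared, 0 lower by the description field, and 2 and 6 with the matched arrays. Mrps25 turned to 0.984 with the authors' table, whose genotypes are the opposite ones. There the Mrpl and Mrps medians were -0.378 and -0.399 for TAC filed as Cre, 0.241 and 0.254 between genotypes after TAC, and 0.195 and 0.170 for the difference of responses.

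The replicate block left 2 rises and 23 falls after TAC filed as KO and 0 lower between genotypes after TAC, where Mrps25 was at -1.15 (limma adjusted p = 0.069). When single arrays were left out there were 0 to 7 rises and 16 to 33 falls filed as KO (16 without KO sham replicate 1 or 4), 0 to 2 rises and 0 to 2 falls filed as Cre, and 0 to 4 higher and 0 to 5 lower between genotypes after TAC. The fall of Mrpl49 filed as KO was called in all 30 alternatives in which single genes were followed. These leave out the operation of the description field, by which 0 members were called. The falls of Mrps25, Mrpl3, Mrpl34, Mrpl42 and Mrps9 were not called with the authors' table. Those of Mrpl18, Mrpl3, Mrpl34, Mrpl42, Mrps21 and Mrps9 were not called under median scaling, and those of Mrpl3, Mrpl42 and Mrps9 not with only the groups compared. The cause of these changes was not tested.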

Other observations

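The column of the authors' value table labelled KO TAC replicate 4 matched none of the scanner files. Over the 78 genes its median was -0.26 against the mean of the KO sham columns of that table, with 59 below that mean. The other KO TAC columns of the table stood at -0.18, -0.32 and -0.04.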
